A study of Rattus norvegicus with 6 samples.

Results

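Complex I of the respiratory chain holds 7 subunits that are encoded by mitochondrial DNA, and this section describes their mRNAs in rat myocardium after sham surgery and after ischemia and reperfusion. The genes were chosen by name (*Mt-nd1*, *Mt-nd2*, *Mt-nd3*, *Mt-nd4*, *Mt-nd4l*, *Mt-nd5* and *Mt-nd6*), and all 7 were found among the 28293 genes of the table and passed the filter on low values. They were selected on their levels in these same 6 libraries, where lower values after ischemia and reperfusion were already known, so the differences between the groups are a description of them, and how many of the 7 the fit over all genes called is given as a count from which nothing is read. After ischemia and reperfusion, all 7 mRNAs had lower mean levels than in sham hearts, by 15.1% for *Mt-nd2* up to 50.5% for *Mt-nd3*, while the mRNAs of the nuclear subunits of the same complex were higher.

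Complex I, or NADH:ubiquinone oxidoreductase, passes electrons from NADH to ubiquinone and pumps protons across the inner mitochondrial membrane. Its mitochondrially encoded subunits form the core of the membrane arm, and the nuclear core subunits form the arm that reaches into the matrix and carries the flavin and the iron-sulfur clusters. In cardiac muscle, which is rich in mitochondria, complex I takes on a less active form during ischemia and is a known source of reactive oxygen species at reperfusion. Mitochondrial DNA is transcribed into long precursors from both strands, which are then cut into single mRNAs, tRNAs and rRNAs. Of the 7 genes described here, only *Mt-nd6* is read from the opposite strand, while *Mt-nd4l* and *Mt-nd4* stay together on a shared mRNA with overlapping reading frames.

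The samples were myocardial tissue from 3 sham rats and 3 I/R rats, all of wild-type genotype. The I/R rats were males in which the left anterior descending coronary artery was tied for 30 min and the heart was taken after 6 h of reperfusion. The sham labels carry the same times and the treatment sham. The region of the heart that was sampled is not given, and tissue from inside and outside the ischemic area cannot be told apart. Total RNA was sequenced with a stranded kit, and the deposited values are FPKM, fragment counts relative to the length of the gene and the total of the library.

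The tissue label was checked against cardiomyocyte genes, and all 7 markers examined were present in every library. Their summed level stood at 3224 to 10575 FPKM in sham and at 21177 to 30449 FPKM in I/R. The highest sham value belonged to sham replicate 1, which also had 5504 FPKM over the nuclear complex I subunits, against 2128 and 2116 in the other sham rats. Counts of calls are therefore also given without it. Of the 7 markers, *Nppa* had the widest spread in both groups and was by far the highest in replicate 1 of each. In the order of the replicate numbers it had 65.3, 8.82 and 5.71 FPKM in sham and 78.4, 9.81 and 6.69 FPKM in I/R. Whether the sampled region differed by replicate number was not tested. The 13 mRNAs of mitochondrial DNA together made up 83.8% ± 3.26 (SD, n = 3) of all FPKM in sham and 68.1% ± 5.43 in I/R. Because FPKM is a share of the library, a change in these mRNAs moves the value of every other gene. In bulk tissue, fewer cells of a type and less RNA per cell cannot be told apart.

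The 7 complex I mRNAs were among the most abundant in the tissue. Summed, they reached 168666, 183478 and 182033 FPKM in the sham rats, in the order of the replicate numbers, as for all values that follow, and 96745, 131822 and 138979 FPKM in the I/R rats. The sum was 31.2% lower in I/R, with no overlap between the groups. As a part of all FPKM in the library, they took 19.6% ± 0.895 in sham and 15.4% ± 1.89 in I/R. No gene outside mitochondrial DNA had a mean over the 6 libraries above that of the least abundant of the 7, and the highest such gene was *Tnni3*, cardiac troponin I, at 4927 FPKM against 6086 FPKM.

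**Figure D1:**
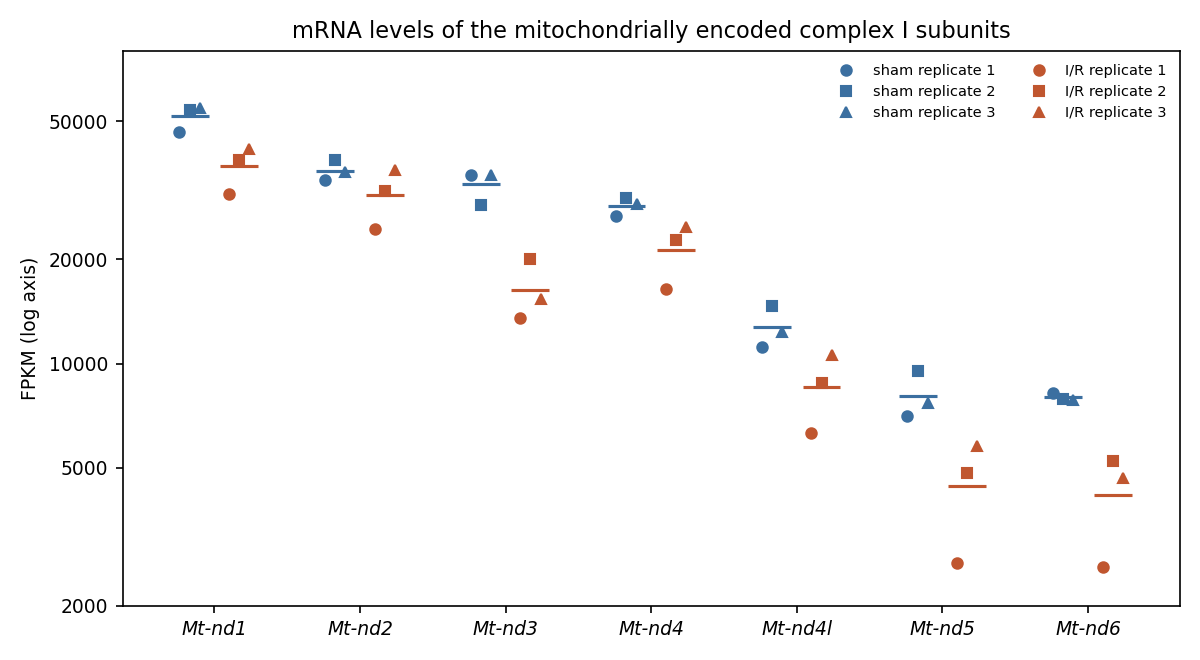
FPKM (log axis) of each mitochondrially encoded complex I mRNA in 3 sham rats (blue) and 3 I/R rats (orange), with symbols for the replicate number and lines for the group means. I/R replicate 1 is the lowest of the 6 rats for all 7 genes, and the groups overlap in *Mt-nd2* alone.

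On the FPKM scale, which is per length of gene, the order of the levels in sham was *Mt-nd1*, *Mt-nd2*, *Mt-nd3*, *Mt-nd4*, *Mt-nd4l*, *Mt-nd5* and *Mt-nd6*. The ranges of *Mt-nd2* and *Mt-nd3*, of *Mt-nd3* and *Mt-nd4*, and of *Mt-nd5* and *Mt-nd6* overlapped, so these neighbours did not differ beyond the spread between rats. In I/R, *Mt-nd3* stood below *Mt-nd4* in 3 of 3 rats, although their ranges overlapped there as well. In sham it stood above *Mt-nd4* in 2 of 3. The other positions in the order of the means were as in sham. The rats also differed more among themselves in I/R, where the coefficient of variation ran from 15.2% to 36.1%, than in sham, where it ran from 2.65% to 15.6%.

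Nearest to the matrix arm lies the Mt-nd1 protein, which forms much of the channel through which ubiquinone enters. *Mt-nd1* (ENSRNOG00000030644) had 46600, 53918 and 54690 FPKM in the sham rats and 30787, 38783 and 41646 FPKM in the I/R rats. It was the most abundant of the 7 in every library, and every I/R value lay below every sham value. Its mean was 51736 ± 4464 FPKM (SD, n = 3) in sham and 37072 ± 5628 FPKM in I/R, a log2 fold change of -0.49 (SE 0.29).

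The Mt-nd3, Mt-nd4l and Mt-nd6 proteins sit between Mt-nd1 and the pumping subunits. A loop of Mt-nd3 near the ubiquinone site is exposed when the enzyme enters its inactive form. *Mt-nd3* (ENSRNOG00000033615) had 35056, 28754 and 34975 FPKM in sham and 13540, 20018 and 15376 FPKM in I/R. The groups were far apart, with the highest I/R value well under the lowest sham value. Its log2 fold change of -1.03 (SE 0.29) had the largest size of the 7, but *Mt-nd6* and *Mt-nd5* lay within that error. The rank also changed with the rat left out. Without I/R replicate 3, *Mt-nd5* had -1.16 and *Mt-nd3* -0.99. Without I/R replicate 2, *Mt-nd6* had -1.20 and *Mt-nd3* -1.18.

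*Mt-nd6* (ENSRNOG00000029042), the gene on the opposite strand, had 8245, 7914 and 7850 FPKM in sham, the narrowest spread of the 7. In I/R it had 2579, 5244 and 4685 FPKM. The mean moved from 8003 ± 212 to 4169 ± 1405 FPKM, a log2 fold change of -1.005 (SE 0.32). How the authors' counting treated strand is not given in the sources used here, so reads from *Mt-nd6* and from transcripts of the other strand across it cannot be told apart.

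*Mt-nd4l* (ENSRNOG00000031053), the small partner of *Mt-nd4* on their shared mRNA, had 11155, 14702 and 12354 FPKM in sham and 6297, 8804 and 10567 FPKM in I/R. The ranges did not overlap, but the highest I/R rat came close to the lowest sham rat. Its log2 fold change was -0.60 (SE 0.30).

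Mt-nd2, Mt-nd4 and Mt-nd5 resemble sodium-proton antiporters and form the proton-pumping part of the membrane arm. *Mt-nd2* (ENSRNOG00000031033) had 33884, 38730 and 35616 FPKM in sham and 24409, 31423 and 36103 FPKM in I/R. The I/R value of replicate 3 lay above 2 of the 3 sham values, and the log2 fold change of -0.25 (SE 0.29) was smaller than its error.

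*Mt-nd4* (ENSRNOG00000029707) had 26677, 29969 and 28843 FPKM in sham and 16470, 22707 and 24821 FPKM in I/R, with a log2 fold change of -0.44 (SE 0.29). *Mt-nd5* (ENSRNOG00000029971), at the far tip of the membrane arm, had 7049, 9492 and 7705 FPKM in sham and 2663, 4843 and 5782 FPKM in I/R. Neither gene overlapped between the groups. The mean of *Mt-nd5* was 45.2% lower in I/R, with a log2 fold change of -0.93 (SE 0.34), so that the 3 antiporter-like subunits covered most of the range seen over the 7. Without I/R replicate 1, the log2 fold changes were -0.10 for *Mt-nd2*, -0.26 for *Mt-nd4*, -0.39 for *Mt-nd4l* and -0.60 for *Mt-nd5*. That of *Mt-nd2* was -0.38 without I/R replicate 3.

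Across the 7 mRNAs the median log2 fold change was -0.60, while over the 10942 genes tested the median was 0.29. In the limma fit over all genes with Benjamini-Hochberg adjustment, 805 genes were called lower in I/R (7.36%) and 2790 were called higher (25.5%). The calls for lower levels included 2 of the 7, *Mt-nd3* and *Mt-nd6*, and 3 of the 7 when the replicate number entered the fit as a block, which added *Mt-nd5*. The ranges of 6 of the 7 lay apart with I/R lower, as they did for 1418 genes in all (13%). Without sham replicate 1 the count of 2 became 4, with *Mt-nd1* and *Mt-nd5* added. It became 1 without I/R replicate 3, where *Mt-nd5* was called and *Mt-nd3* and *Mt-nd6* were not, and 0 without sham replicate 2, sham replicate 3 or I/R replicate 1.

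Shares of the summed FPKM of the 13 mitochondrial mRNAs describe the same reads without the scale of the library. The 7 complex I mRNAs together held 23.4%, 24.1% and 22.7% of that sum in the sham rats and 21.4%, 22.5% and 23.6% in the I/R rats. These ranges overlapped, and the mean share was 0.90 percentage points lower in I/R. Complex IV, cytochrome c oxidase, held 52.2% in sham and 51.8% in I/R, and complex V, ATP synthase, held 17.4% and 17.9%.

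Within this total, the shares of the single subunits moved in different directions, and a share rises where a level falls less than the sum. The share of *Mt-nd3* was 4.86%, 3.78% and 4.37% in sham and 2.996%, 3.42% and 2.61% in I/R, lower in every I/R rat than in any sham rat. The share of *Mt-nd6* was 1.14%, 1.04% and 0.981% in sham and 0.571%, 0.896% and 0.795% in I/R, also without overlap. *Mt-nd2* had the reverse pattern, as its share was 4.70%, 5.09% and 4.45% in sham and 5.40%, 5.37% and 6.13% in I/R, although its mean FPKM was 15.1% lower. The share of *Mt-cyb*, of complex III, was also higher without overlap, at 6.57%, 7.09% and 7.16% in sham and 7.54%, 7.52% and 8.47% in I/R. The shares of *Mt-nd1*, *Mt-nd4*, *Mt-nd4l* and *Mt-nd5* overlapped between the groups. The share of *Mt-nd1* had means of 6.79% ± 0.314 and 6.83% ± 0.223, closer together than its spread between rats.

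**Figure D2:**
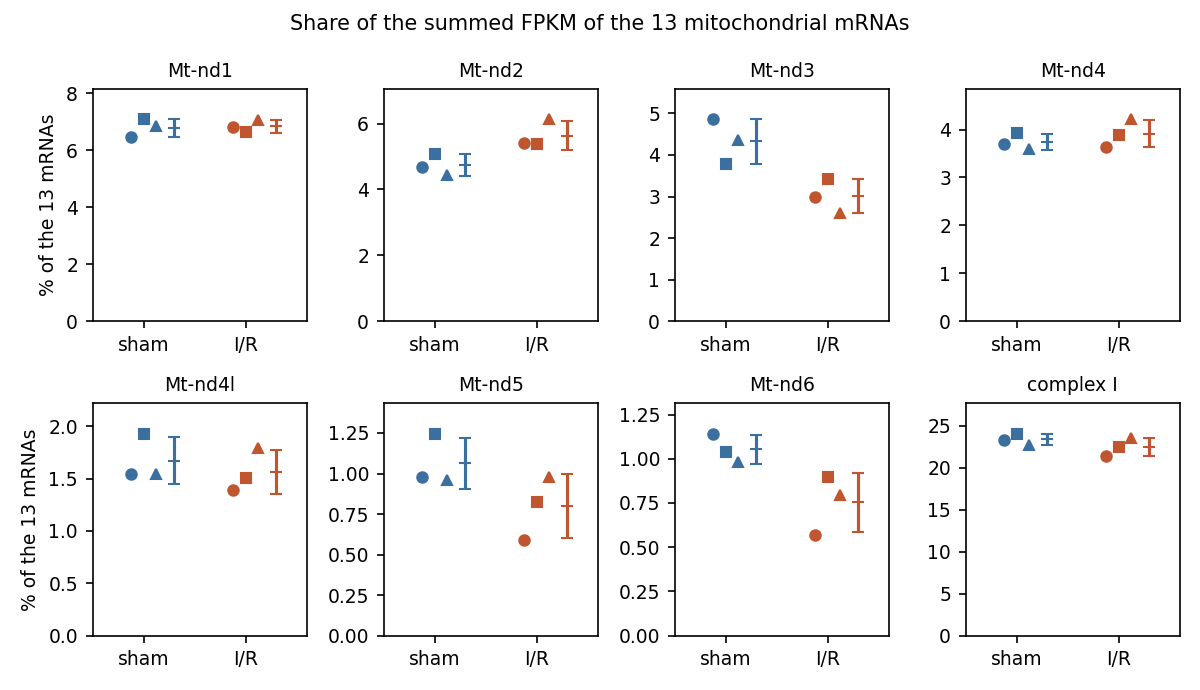
Percent of the summed FPKM of the 13 mitochondrial mRNAs held by each complex I subunit and by complex I as a whole, for 3 sham rats (blue) and 3 I/R rats (orange), with symbols for the replicate number (circle 1, square 2, triangle 3). Bars give the mean ± SD, each vertical axis starts at 0, and the axes differ in range. *Mt-nd3* and *Mt-nd6* lie lower and *Mt-nd2* lies higher in I/R without overlap.

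Among the 7 alone, *Mt-nd2* took 20.3% ± 0.785 of their sum in sham and 25.0% ± 1.09 in I/R, and *Mt-nd4* took 16.0% ± 0.291 and 17.4% ± 0.436. *Mt-nd3* took 18.6% ± 2.62 in sham and 13.4% ± 2.12 in I/R. *Mt-nd5* took 4.53% and 3.53%, and *Mt-nd6* took 4.50% and 3.34%. None of these 5 overlapped between the groups, whereas *Mt-nd1* and *Mt-nd4l* did.

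For *Mt-nd3*, the ratios to *Mt-co3* and *Mt-nd4*, which lie close to it on mitochondrial DNA, gave the same picture. Its ratio to *Mt-co3*, the complex IV gene just before it on the same strand, was 0.294, 0.212 and 0.233 in sham and 0.174, 0.196 and 0.148 in I/R. Its ratio to *Mt-nd4*, which lies beyond *Mt-nd4l* on the same strand, was 1.31, 0.959 and 1.21 in sham and 0.822, 0.882 and 0.619 in I/R. Both ratios were lower in I/R without overlap. For *Mt-nd4l*, the gene directly after *Mt-nd3*, the levels given above do not set such a ratio apart between the groups. *Mt-nd4* over *Mt-nd4l*, the genes of the shared mRNA, was 2.39, 2.04 and 2.33 in sham and 2.62, 2.58 and 2.35 in I/R, and these ranges overlapped.

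*Mt-nd5* over *Mt-nd4* was 0.264, 0.317 and 0.267 in sham and 0.162, 0.213 and 0.233 in I/R, lower without overlap. *Mt-cyb*, which encodes cytochrome b of complex III and lies beyond *Mt-nd5* on the same strand, was 6.73, 5.69 and 7.44 times as high as *Mt-nd5* in sham and 12.8, 9.10 and 8.63 times as high in I/R. *Mt-nd6*, between these genes on the opposite strand, kept a level close to that of *Mt-nd5*, with a ratio of 1.01 ± 0.168 in sham and 0.954 ± 0.137 in I/R. *Mt-nd2* over *Mt-nd1*, neighbours at the start of the coding region, was 0.699 ± 0.0415 in sham and 0.823 ± 0.0387 in I/R without overlap.

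**Figure D3:**
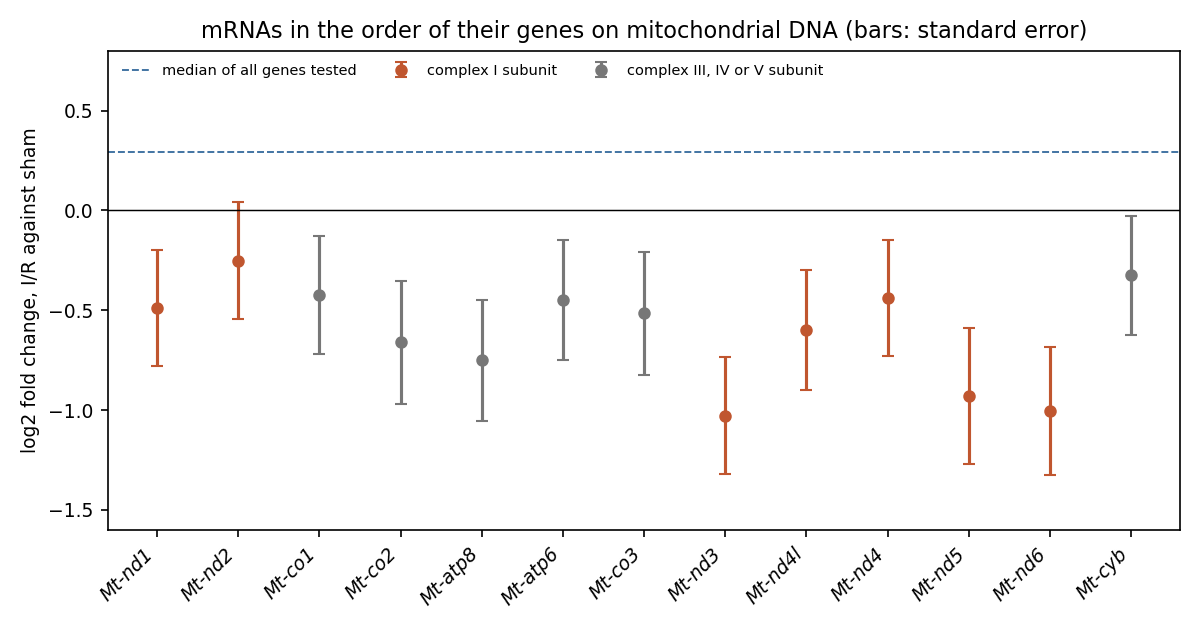
Log2 fold change of I/R against sham (vertical axis) for the 13 mitochondrial mRNAs in the order of their genes on mitochondrial DNA, with standard errors from limma. Complex I subunits are orange, the others grey, and the dashed line is the median of all genes tested at 0.29. *Mt-nd3*, *Mt-nd5* and *Mt-nd6* lie near -1, and *Mt-nd2* lies closest to 0.

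The other 6 mRNAs of mitochondrial DNA, for subunits of complexes III, IV and V, had log2 fold changes from -0.32 (*Mt-cyb*) to -0.75 (*Mt-atp8*) with a median of -0.48. Their differences are part of the same known contrast. The limma fit called 0 of the 6 lower, and 1 of the 6 passed an unadjusted p of 0.05. Without sham replicate 1, 2 of the 6 were called lower. *Mt-atp8*, which shares its mRNA with *Mt-atp6*, had 10099, 7404 and 9134 FPKM in sham and 6117, 6136 and 3817 FPKM in I/R. It was the lowest of these 6 in level and the nearest to *Mt-nd3*, *Mt-nd5* and *Mt-nd6* in fold change, although its adjusted p of 0.081 missed the threshold.

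The 7 mRNAs did not vary in the same way between rats of a group. Taken as deviations from the group means on the log2 scale over the 6 rats, *Mt-nd1*, *Mt-nd2*, *Mt-nd4*, *Mt-nd4l* and *Mt-nd5* had correlations of 0.93 to 0.99 over their 10 pairs. *Mt-nd3* correlated at 0.15 to 0.40 with those 5 and at 0.74 with *Mt-nd6*. *Mt-nd6* correlated at 0.75 to 0.89 with the 5. These values share libraries and their scale and are given as a description. The pattern can be seen in the single values, as *Mt-nd3* and *Mt-nd6* were highest in replicate 2 among the I/R rats and the other 5 were highest in replicate 3.

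The mRNAs of the nuclear subunits of complex I moved the other way. Of 37 nuclear subunits listed, 33 were tested, and limma called 28 of them higher (adjusted p under 0.05) and 0 lower. Their median log2 fold change was 1.58. All 33 had positive values, so none was lower at an unadjusted p of 0.05 either. The count of 28 was 17 without sham replicate 2 and 32 without sham replicate 1. All 6 nuclear core subunits tested rose.

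*Ndufv1*, which encodes the subunit that binds flavin and NADH, had 197, 73.0 and 66.9 FPKM in sham and 518, 334 and 301 FPKM in I/R, a log2 fold change of 1.92 (SE 0.41, adjusted p = 0.0087). *Ndufs1*, of the subunit with the most iron-sulfur clusters, rose by 1.94 (SE 0.39, adjusted p = 0.0072) and *Ndufs8* by 1.95 (SE 0.35, adjusted p = 0.0048). *Ndufs7*, whose protein lines the ubiquinone site together with Mt-nd1, rose by 1.51 (SE 0.35, adjusted p = 0.012), while *Mt-nd1* had the -0.49 given above. With each library rescaled over the genes other than the 13 mitochondrial mRNAs, it had a log2 fold change of 0.73 (adjusted p = 0.058), and the other 5 core subunits tested kept their calls. *Ndufs3* and *Ndufv2* rose by 1.87 and 1.57.

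Among the accessory subunits, *Ndufb6*, *Ndufb8* and *Ndufb10*, all of the membrane arm that the mitochondrial subunits form, had the largest log2 fold changes, at 2.87 (SE 0.44), 2.14 (SE 0.31) and 2.11 (SE 0.37). The smallest were those of *Ndufa1*, *Ndufa5* and *Ndufa3*, at 0.49, 0.51 and 0.73, with adjusted p of 0.41, 0.28 and 0.082.

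The 7 mitochondrial mRNAs summed were 30.6, 86.2 and 86.0 times the summed nuclear complex I mRNAs in the sham rats and 9.42, 15.4 and 16.3 times in the I/R rats. The groups did not overlap. Sham replicate 1 lay nearer to the I/R rats than to the other sham rats, with a mitochondrial sum close to theirs and the highest nuclear sum of the sham group, 2.60 times the lowest. The nuclear subunits moved together with the cardiomyocyte markers, of which 5 of 7 rose and 0 fell, with a median log2 fold change of 1.92. Without sham replicate 1 the mean ratio was 86.1 in sham, against 67.6 with it and 13.7 in I/R, and 5 of the 7 cardiomyocyte markers were again called higher. The part of cell makeup in the ratio was not tested.

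**Figure D4:**
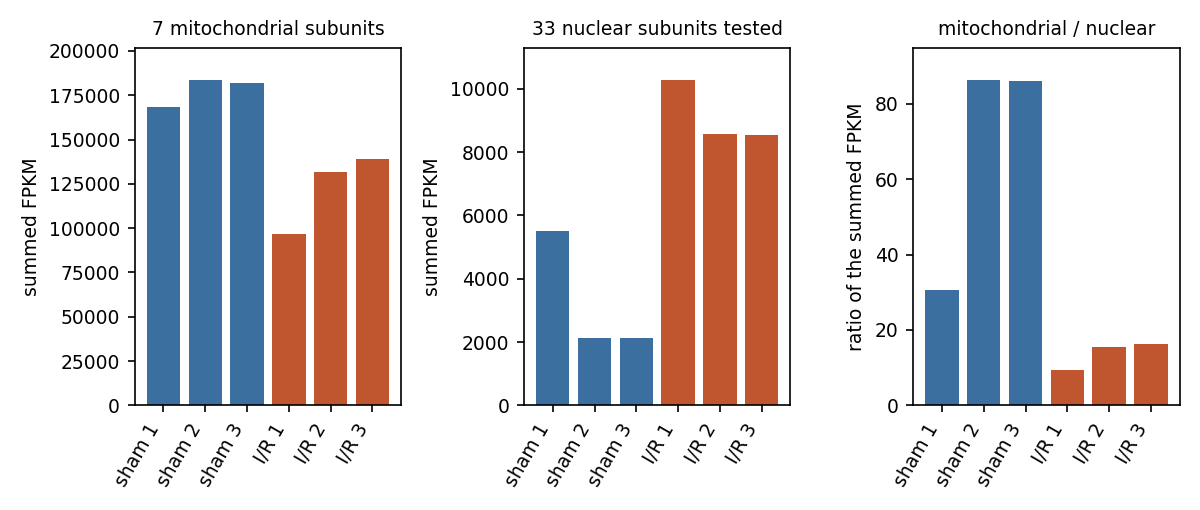
Summed FPKM of the 7 mitochondrially encoded complex I mRNAs (left), summed FPKM of the 33 nuclear complex I subunits tested (middle) and the ratio of these sums (right), 1 bar for each rat, sham in blue and I/R in orange, all axes starting at 0. The ratio is 30.6 to 86.2 in sham and 9.42 to 16.3 in I/R.

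For the assembly factors of complex I, which are not part of the finished enzyme, the count depended on the scaling. Of 18 tested, 13 rose and 0 fell in the limma fit, where 25.5% of all genes were called higher, with a median log2 fold change of 1.12, and none was lower at an unadjusted p of 0.05. *Ecsit* rose by 1.99 (SE 0.40, adjusted p = 0.0070) and *Tmem126a* by 1.87 (SE 0.45, adjusted p = 0.013), whereas *Foxred1* had a log2 fold change of -0.03 and *Ndufaf4* one of 0.39. *Tmem126a* was near the floor, with 0.227, 0.204 and 0.212 FPKM in sham and 2.09, 0.722 and 0.743 FPKM in I/R. It passed the filter of 0.5 FPKM only through its I/R values, of which replicate 1 was by far the highest. The count of 13 was 11 without sham replicate 1, 5 without sham replicate 3, 7 without sham replicate 2 and 8 without I/R replicate 1. After rescaling with the 13 mitochondrial mRNAs left out of the total, 4 of the 18 were called higher with a median of 0.40. *Ecsit* kept its call there, *Tmem126a* did not (adjusted p = 0.068), and *Foxred1* and *Ndufaf4* had log2 fold changes of -0.81 and -0.38.

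Of the genes that transcribe and copy mitochondrial DNA, 13 were tested, and 4 rose and 1 fell, with a median log2 fold change of 0.40. These counts are near the background over all genes, of which 25.5% were called higher and 7.36% lower. After rescaling with the 13 mitochondrial mRNAs left out of the total, 0 were called higher and 3 lower, with a median of -0.34. *Polrmt*, the mitochondrial RNA polymerase, had a log2 fold change of 0.31 (SE 0.27, adjusted p = 0.41) in limma, and *Tfb2m*, its initiation factor, one of 0.47 (SE 0.28, adjusted p = 0.22). *Tfam*, which packs mitochondrial DNA and starts its transcription, rose by 0.84 (SE 0.24, adjusted p = 0.026). *Tefm*, the elongation factor, rose by 1.51 (SE 0.37, adjusted p = 0.013) from about 0.803 to 2.75 FPKM, and *Mterf4* rose by 0.99. *Mterf1*, a transcription termination factor, fell by 1.03 on the log2 scale (SE 0.34, adjusted p = 0.040), and *Top1mt* had a log2 fold change of -0.51 (adjusted p = 0.16). After the rescaling, *Tfam*, *Tefm* and *Mterf4* lost their calls, with log2 fold changes of 0.07, 0.82 and 0.23 (adjusted p of 0.87, 0.12 and 0.56). *Polrmt* and *Tfb2m* turned negative, at -0.47 and -0.31, and *Mterf1* kept its call.

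Of the genes that cut, stabilise and degrade mitochondrial RNA, 16 were tested, and 9 rose and 1 fell, with a median log2 fold change of 0.77. After rescaling with the 13 mitochondrial mRNAs left out of the total, 2 were called higher and 2 lower, and the median was 0.0040. *Lrpprc* and *Slirp*, whose proteins together stabilise mitochondrial mRNAs, rose by 1.95 (SE 0.36, adjusted p = 0.0052) and 1.28 (SE 0.29, adjusted p = 0.010) in limma. *Hsd17b10*, a subunit of the mitochondrial RNase P that frees the 5′ ends of tRNAs, rose by 1.85. *Fastk*, which is needed for *Mt-nd6* mRNA, had 11.1, 15.1 and 11.5 FPKM in sham and 41.8, 25.0 and 25.2 FPKM in I/R, a rise of 1.25 (SE 0.27, adjusted p = 0.0087).

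*Grsf1*, which binds the transcripts of the opposite strand, rose by 1.09 (SE 0.28, adjusted p = 0.016). *Supv3l1*, the helicase of the mitochondrial RNA degradosome, rose by 1.14, while *Pnpt1*, its nuclease, had a log2 fold change of 0.43 (adjusted p = 0.26). *Mtpap*, the poly(A) polymerase, had one of -0.01. *Fastkd1*, of which loss is known to raise *Mt-nd3* mRNA, was the gene of this list that fell, from 3.16 ± 0.619 to 1.23 ± 0.339 FPKM, by 1.31 on the log2 scale (SE 0.27, adjusted p = 0.0076). *Fastkd3* had a log2 fold change of -0.63 (adjusted p = 0.11) and *Fastkd2* one of 0.67 (adjusted p = 0.061). After the rescaling, *Lrpprc* and *Hsd17b10* were again called higher and *Fastkd1* lower. *Slirp*, *Fastk*, *Grsf1* and *Supv3l1* lost their calls, with log2 fold changes of 0.52, 0.47, 0.32 and 0.38 and adjusted p of 0.17, 0.20, 0.38 and 0.33. Over both lists of mitochondrial DNA and RNA genes, 13 rose and 2 fell, and the 13 became 10 without sham replicate 1 and 7 without sham replicate 2 or sham replicate 3. The 2 became 1 without sham replicate 2, sham replicate 3, I/R replicate 2 or I/R replicate 3.

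Markers of other cells stood beside these values as follows. Of 7 fibroblast genes, 2 rose, and their sum was 420 to 581 FPKM in sham and 605 to 669 FPKM in I/R. Of 7 endothelial genes, 0 rose or fell in limma, with 2 at an unadjusted p under 0.05, and the sums overlapped (156 to 200.5 and 165 to 191 FPKM). Of 6 neutrophil and monocyte genes tested, 4 rose and 1 fell, and the sum over all 9 genes of the list was 20.5 to 30.0 FPKM in sham and 55.5 to 122 FPKM in I/R. Of 6 red blood cell genes, 2 were found and 0 were called or passed an unadjusted p of 0.05, with sums of 1130 to 1262 FPKM in sham and 605 to 1750 FPKM in I/R. After rescaling with the 13 mitochondrial mRNAs left out of the total, 0 fibroblast genes were called higher and 2 lower, 4 endothelial genes and 1 red blood cell gene were called lower, and 2 neutrophil and monocyte genes were called higher and 1 lower. Without sham replicate 1, the counts of calls in these 4 lists were as in the fit with it. The 2 fibroblast genes became 1 without sham replicate 3 or I/R replicate 3. Without sham replicate 2, 1 endothelial gene and 3 neutrophil and monocyte genes were called higher. The 1 neutrophil and monocyte gene that fell became 0 without sham replicate 2, sham replicate 3, I/R replicate 1 or I/R replicate 3. The part of any of these cells in the levels of the 7 mRNAs was not tested.

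Since the mitochondrial mRNAs make up most of the FPKM, the size of their differences depended on how the libraries were scaled. Rescaling each library over the genes other than the 13 moved the median of all genes by -0.77 and put the median of the 7 at -1.38, with all 7 apart between the groups and 50.8% to 71.1% lower in I/R. Relative to the median of all genes, the median of the 7 was -0.89 in the deposited FPKM and -0.90 after this rescaling. Under quantile normalization, which gives each rank the same value in every library, *Mt-nd2* and *Mt-nd4* lay above 0, at 0.11 and 0.20. *Mt-nd1* showed no difference, and the median of the 7 was -0.12. A gene that keeps its rank has no difference under this scaling, whatever its level, and *Mt-nd1* kept its rank among the most abundant genes. This scaling therefore cannot show whether the levels of such genes fell. *Mt-nd3*, *Mt-nd4l*, *Mt-nd5* and *Mt-nd6* had negative log2 fold changes under all 5 scalings compared. Of all calls, 77.6% were for higher levels in the deposited FPKM, 56.5% when each library was centred on its median, 48.0% with quantile normalization and 21.4% with rescaling over the other genes. The nuclear subunits that rose numbered 18 of 33 after that rescaling, with 0 that fell.

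**Figure D5:**
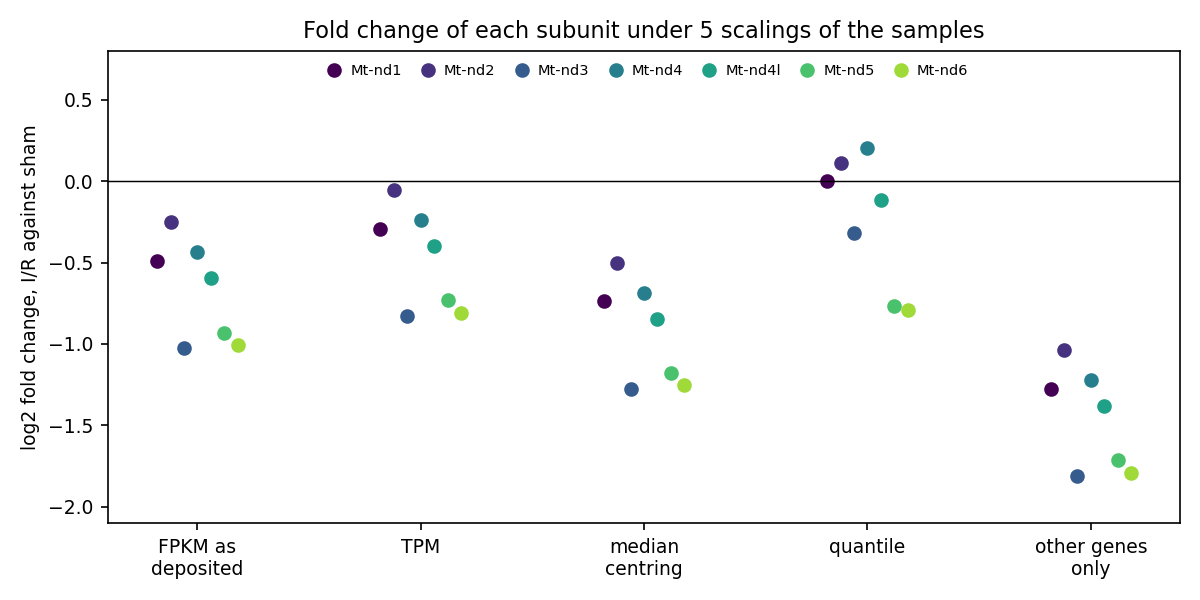
Log2 fold change of I/R against sham (vertical axis) for each of the 7 mRNAs under 5 scalings of the libraries, from the deposited FPKM to FPKM rescaled over the genes other than the 13 mitochondrial mRNAs. *Mt-nd2* and *Mt-nd4* lie above 0 under quantile normalization, and all 7 lie between -1.81 and -1.04 on the far right.

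The nuclear genes most like the 7 were sought among 3761 genes with a mean of at least 5 FPKM, by Pearson's correlation with the mean log2 level of the 7 over the 6 rats. The highest were *Paxbp1* (0.985), *Akr1c19* (0.977), *Akap8* (0.976), *Hscb* (0.971) and *Ppip5k2* (0.970). All 5 had lower levels in I/R without overlap, as did 13% of all genes tested, and these correlations include the difference between the groups. The 5 were picked for likeness to a profile that was itself lower in I/R, so nothing is read from their direction. *Hscb*, an iron-sulfur cluster co-chaperone of mitochondria, had 12.0, 12.1 and 11.6 FPKM in sham and 7.79, 10.1 and 9.26 FPKM in I/R. Its log2 fold change of -0.40 was not called in limma (adjusted p = 0.17). When deviations from the group means were used, the highest were the ribosomal protein gene *Rpl34* (0.996) and 4 genes given by Ensembl identifier alone (0.986 to 0.995).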

How the data were processed

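RNA of myocardial tissue from 3 sham and 3 I/R rats was analysed. The authors deposited 1 table of FPKM values with 30452 rows. Per the labels the library kit was stranded, and the submitters' processing notes name STAR and HTSeq. Versions, genome build, annotation, strand setting and treatment of multi-mapping reads are not given in the sources used here, so reads shared with nuclear copies of mitochondrial DNA or between overlapping genes are uncertain.

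Rows of one symbol were summed, and the 7092 rows without a symbol kept their Ensembl identifier. Log2(FPKM + 0.1) of the 10942 genes with a mean of at least 0.5 FPKM was compared between the groups with limma 3.58.1 in R 4.3.3 (lmFit, eBayes with an intensity trend) and Benjamini-Hochberg adjustment, with a threshold of 0.05. Fold changes are on that scale, with moderated standard errors. The pipeline was tested on simulated data, in which 200 genes were moved by 2 on the log2 scale. It recovered 177 of them, with 7 false among 184 calls. These moves were larger than the differences of the 7 genes, and no shift in the makeup of the library was simulated. The test therefore does not show how well differences of that size or kind are found.

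The 7 genes and the lists were chosen with earlier results of these data known. Genes were named by a rule: the 13 mitochondrial mRNAs, the nuclear core subunits, some regulators, and the largest and smallest changes of each list. Not every gene under this rule is reported here. In limma, "rose" and "fell" mean an adjusted p under the threshold. Nothing states that rats of the same group came from separate litters or days, so p-values measure the spread between these samples.

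Replicate numbers come from the labels. Deviations from the group means over 10942 genes correlated at 0.20, 0.12 and 0.12 between same-numbered samples (0.12 also between sham 3 and I/R 2), and the reported fit, which has no block, was repeated with the replicate number as one. The absolute depth is unknown. Steps between low FPKM values gave depths of 0.873 to 1.18 relative to sham replicate 1, with 81.5% of values within 0.05 of a whole multiple. Alternatives were the pseudocount, the filter, the scaling, the trend, the block, the treatment of repeated symbols and leaving out each rat.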

Additional observations from a re-analysis of the deposited data

How the results depend on the processing

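The 7 mitochondrially encoded complex I mRNAs had negative log2 fold changes under every pseudocount, filter, trend, block and left-out rat, and under every scaling except quantile normalization, where *Mt-nd2* (0.11) and *Mt-nd4* (0.20) lay above 0 and *Mt-nd1* showed no difference. Quantile normalization fixes the value of each rank, so it cannot show a fall in genes that keep their ranks. Their median was -0.12 under quantile normalization, -1.38 after rescaling over the other genes, and -0.77 to -0.39 when a rat was left out, with the smallest size without I/R replicate 1. The difference in the complex I share of the 13 mRNAs ran from -1.44 percentage points (without I/R replicate 3) to -0.35 (without I/R replicate 1), and was -0.55 without sham replicate 2.

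Without the filter, 0 of the 7 were called lower, 8 assembly factors were called higher and 1 mitochondrial DNA and RNA gene was called lower. The log2 fold changes of *Mt-nd3* and *Mt-nd6* were unchanged there, but their moderated SE were 1.12 and 0.62, against 0.29 and 0.32 with the filter. With a mean of at least 5 FPKM, 166 genes, 5 of the other mitochondrial mRNAs and 0 mitochondrial DNA and RNA genes were called lower, and 8 assembly factors were called higher. That filter left fewer genes to test: 9 assembly factors, 3 genes that transcribe and copy mitochondrial DNA, and 8 of mitochondrial RNA. *Mterf1* and *Fastkd1*, called lower in the reported fit, had group means under 5 FPKM and were not tested there, so the 0 says nothing about them. With TPM, 504 genes and 1 mitochondrial DNA and RNA gene were called lower. After centring on the median, 1554 genes, 0 of the 7 and 5 mitochondrial DNA and RNA genes were called lower.

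Under quantile normalization, 1441 genes were called higher and 1559 lower, with 0 of the 7, and 12 nuclear subunits, 7 assembly factors and 5 mitochondrial DNA and RNA genes were called higher. After rescaling over the other genes, 772 genes were called higher and 2831 lower, with 6 of the 7, 3 of the other mitochondrial mRNAs and 5 mitochondrial DNA and RNA genes, and 18 nuclear subunits, 4 assembly factors and 2 mitochondrial DNA and RNA genes were called higher.

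When a rat was left out, 1528 to 2557 genes were called higher and 309 to 881 lower. The lowest counts came without sham replicate 3 (1528 higher, 359 lower) and sham replicate 2 (309 lower). The counts were 0 to 4 of the 7, 0 to 2 of the other mitochondrial mRNAs and 1 to 2 mitochondrial DNA and RNA genes called lower, and 17 to 32 nuclear subunits, 5 to 12 assembly factors and 7 to 11 mitochondrial DNA and RNA genes called higher. With the replicate number as a block, 3 of the 7 were called lower, and the pairing changed the call of no other gene named. The cause of these shifts was not tested. Weighting by gene length was not run, as no lengths of these genes were at hand. With 3 rats a group and unknown absolute depth, a missed threshold does not show that levels were alike.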

Other observations

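The table holds 24 other rows of mitochondrial DNA that it does not pair with gene names, and 15 of them passed the filter. They took 2.88% ± 0.623 (SD, n = 3) of all FPKM in sham and 1.70% ± 0.323 in I/R. In limma with Benjamini-Hochberg adjustment, 4 of the 15 were lower in I/R and 1 was higher, beside 7.36% and 25.5% of all genes tested. One of the 4 was near the floor, with 2.06, 4.07 and 0.302 FPKM in sham and 0, 0.734 and 0 FPKM in I/R. The row called higher was also low, with 3.16, 0.535 and 0.278 FPKM in sham and 2.89, 5.07 and 9.68 FPKM in I/R. The groups overlapped in both rows. The 3 rows with the highest levels are given here. The first had 11666, 8940 and 10250 FPKM in sham and 2546, 3361 and 3262 FPKM in I/R (log2 fold change -1.75, SE 0.27, adjusted p = 0.0033). Another had 5572, 3829 and 4737 FPKM in sham and 1367, 2346 and 2194 FPKM in I/R (log2 fold change -1.28, SE 0.30, adjusted p = 0.012). The last had 8341, 5868 and 11362 FPKM in sham and 5093, 8063 and 8058 FPKM in I/R, with an adjusted p of 0.60. Sham replicate 1 was the highest of the 6 libraries in 10 of the 15 rows, although it was the highest in *Mt-nd3* and *Mt-nd6* alone among the 7 complex I mRNAs.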
